A study of Drosophila melanogaster with 5 samples.

Results

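MSL2 peaks that lie far from the head of the authors' peak list were described in S2 cells, an established Drosophila melanogaster line with a male-like state of dosage compensation. Of the 709 peaks in the list, 204 belong to this group, called the distant peaks here. They were chosen by values of the list itself: the number that ends the peak's name is above 300, and the midpoint is more than 20000 bp from the midpoint of every peak numbered 300 or lower. The list also holds 289 peaks numbered above 300 that lie within 20000 bp of such a peak, called the proximal peaks, and 216 low-numbered peaks (300 or lower). The header does not state what the number stands for.

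The peaks came from CUT&RUN, in which an antibody directs a nuclease to a chromatin protein in permeabilized cells and the released DNA is sequenced. The labels give 3 libraries with a rabbit serum against MSL2 and 2 control libraries, whose target is given as PPI, and the protocol names pre-immune serum. Neither group carries a mutation or a drug treatment in the labels, and S2 is a single line, so no difference between animals or tissues enters. The list gives 1 set of positions for the series, called on anti-MSL2 tags (aligned reads) against control tags, and no value per library. No replicate error can therefore be given, and the identity of the cells was not checked, as the list holds no measure of gene expression.

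MSL2 is the male-specific subunit of the MSL complex, which binds the male X chromosome and raises transcription of its genes. The complex also contains the noncoding roX RNAs, the helicase MLE and the acetyltransferase MOF, which acetylates histone H4. As background, binding is described as starting at entry sites rich in GA repeats and as extending from there over active genes. The list gives no strength for a peak, so which of its peaks are entry sites cannot be read from it.

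All 204 distant peaks lay on X, as did every other peak of the list. Their numbers ran from 304 to 3598 with a median of 893, against a median of 596 for the proximal peaks. The distance to the nearest low-numbered peak ran from 20032 to 408360 bp, with a median of 55701 bp and quartiles of 32421 and 109662 bp. These values chose the members and are given as a description. The number follows the place in the list closely (Spearman's rho 0.996 over the 204 peaks, from place 215 to place 709), so both carry the same order. Among distant peaks the number had a weak rank relation to the distance to the nearest low-numbered peak (Spearman's rho 0.136, n = 204 peaks on 1 chromosome). The median distance was 42724 bp for the 68 peaks with the lowest numbers, 44505 bp for the middle 68 and 75650 bp for the highest 68. Both values chose the members, so this relation was not tested.

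**Figure D1:**
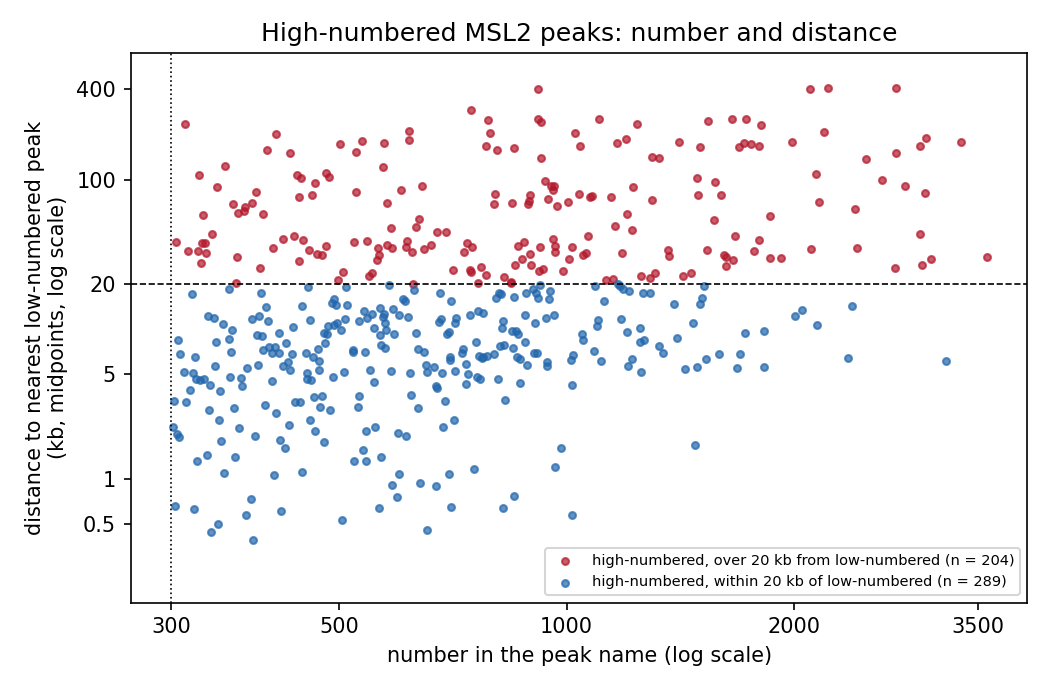
Number in the peak name (log scale) against the distance in kb to the nearest low-numbered peak (log scale), 1 point per peak, for the 204 distant peaks (red) and the 289 proximal peaks (blue). The dashed line is the 20 kb limit and the dotted line the number 300; the distant peaks lie between 20032 and 408360 bp.

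The limits cut through a continuous range. The distant peak nearest to the distance limit was peak 626 (chrX:8709339-8709489, dm6), 237.5 bp outside Hexo2 and 20032 bp from a low-numbered peak. Just outside the limit was peak 1168 (chrX:11125132-11125282), inside Rpt3, a subunit of the proteasome, at 19950 bp. At l(1)G0320 the limit fell between neighbours. Peak 365, with its midpoint in the gene, was 20244 bp from a low-numbered peak and so a distant peak, and peak 582, 50.5 bp outside the gene, was a proximal peak at 19729 bp. By number, the first distant peak was 304, and the nearest low-numbered peak was 300, in dome, the receptor of the JAK/STAT pathway.

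The distant peaks occupied a large part of X at low density. X extends over 23.5 Mb to its last annotated gene, and 17.6 Mb of this lies more than 20000 bp from every low-numbered peak. In these 17.6 Mb the 204 distant peaks had a density of 11.6 per Mb. In the other 5.93 Mb, the 289 proximal peaks had 48.7 per Mb. High-numbered peaks were thus sparser away from low-numbered peaks, as a description of the list and without a test.

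The stretches beyond 20000 bp numbered 115, of which 65 held a distant peak and 50 held none. The stretch from the start of X to 634369 held 13 distant peaks, and so did the stretch from X 782450 to 1198692. Next was the stretch X 11600292 to 11772854, with 12. The longest stretch, 1059222 bp, began at X 21389563 and held 2 distant peaks. The longest stretch with none was 433225 bp, beginning at X 22555717.

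In bins of 1 Mb, the 25 distant peaks between 11 and 12 Mb were the most, followed by 24 between 15 and 16 Mb and 21 between 0 and 1 Mb. The last of these bins holds 29 listed peaks in all and 2 low-numbered ones, so distant peaks make up most of it. Between 14 and 15 Mb, 9 of the 10 listed peaks were distant and the other 1 was low-numbered. Between 12 and 13 Mb there were 2 distant peaks beside 13 low-numbered ones, and beyond 22 Mb there were none (0 between 22 and 23 Mb and 0 between 23 and 24 Mb).

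Distant peaks often lay near one another. The nearest listed peak was another distant peak for 169 of the 204, a proximal peak for 23 and a low-numbered peak for 12. The rule fixes part of this, since no low-numbered peak can be closer than 20000 bp. The median distance to the nearest listed peak was 4072 bp for distant peaks, 2771 bp for proximal peaks and 4289 bp for low-numbered peaks. The most solitary was peak 747 (chrX:3488339-3488489), inside CG10803 and lncRNA:CR44999, with no listed peak within 214088 bp.

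When neighbouring distant peaks within 20000 bp of each other were joined, they formed 97 runs. Of these, 49 were single peaks and 28 held 3 or more, with 115 peaks between them. The longest by count held 8 peaks in 33767 bp (X 11689686 to 11723452). It passed over bif, PhKgamma (the catalytic subunit of phosphorylase kinase), FucT6 (a fucosyltransferase), Amun and Tango10, with numbers from 345 to 1570.

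**Figure D2:**
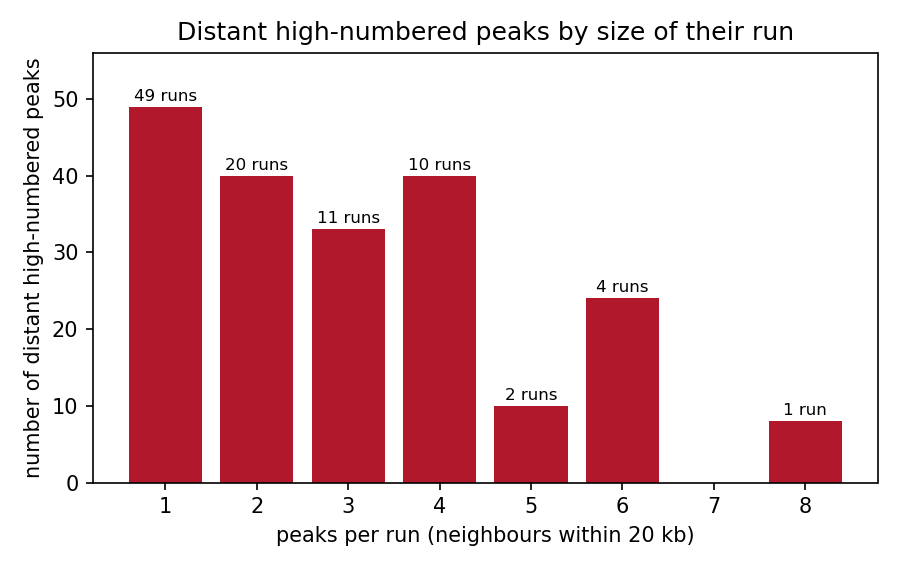
Number of distant peaks (y axis) by the number of peaks in their run (x axis, neighbours within 20 kb), with the number of runs above each bar. Single peaks are the commonest class with 49, and 1 run holds 8 peaks.

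There were 4 runs of 6 peaks. The first lay at X 470851 to 516193, in and between ebo, CG3176, CG18273, svr (a carboxypeptidase) and elav, the neuronal RNA-binding protein. The second, X 15306457 to 15345259, covered gce (a receptor of juvenile hormone), Top1 (topoisomerase I), HDAC6 (a deacetylase), CG12608 and Prp5 (a splicing helicase). Another, X 15730714 to 15769799, held HUWE1, a ubiquitin ligase, and Polr3A, the largest subunit of RNA polymerase III. The last, X 19480273 to 19521959, ended with peaks in Idh3a, a subunit of isocitrate dehydrogenase, and beside CoRest, a corepressor. Numbers within a run varied widely: from 402 to 1407 in the Top1 run and from 537 to 2936 in the ebo run.

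The 2 runs of 5 peaks covered su(w[a]) with lncRNA:CR44779, and mmd, Slc25A46a, eIF5, exd (a homeodomain cofactor) and vap. Of the 10 runs of 4 peaks, 1 lay at G9a alone, with all 4 midpoints inside it. Others lay at several neighbouring genes: Rbf with CG16989, CG13359 and Sec22; MED22 with CG43867 and CG3704; Cdk7 (the kinase of a general transcription factor) with CG3309 and XRCC1; and Hira with NELF-B and CG12155. The rest were at GAA1, Usp30 and CG16721, at Gclc (an enzyme of glutathione synthesis), cyr and Smox (a Smad protein), at rho-4, Met and Ptp10D, at p24-1, Nrd1 and CG15739, and at rngo, eIF2alpha, eIF4H1 and para.

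Of the 11 runs of 3 peaks, 3 lay at a single gene each (inc, CG14442 and CHES-1-like). A further 1 lay among tRNA genes. The others included those at Marf with PpV (a protein phosphatase), mahe with Ubr3, Lst8 (a TOR cofactor) with Hecw, Gapvd1 with Kap3 (a kinesin subunit), Rok with CG32573, and Vsp37A with lncRNA:CR45474 and CG13369.

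The 10 peaks farthest from a low-numbered peak began with 4 in G9a, a histone methyltransferase (gene 30971, X 245978 to 254650). These 4 were peaks 2218, 2726, 2101 and 916, 400507 to 408360 bp from a low-numbered peak. Peak 2218 (chrX:245935-246085) straddled a gene end, with its midpoint 32.5 bp inside G9a. The next was peak 747 in CG10803 at 292711 bp, and then peak 1104, 906.5 bp outside DIP1, at 254326 bp.

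Peaks 1727, 1658 and 918 formed a group around XRCC1, a scaffold protein of DNA repair, and CG3309, between 252118 and 253876 bp from a low-numbered peak. The last of the 10 was peak 788, 52.5 bp outside CG1835, at 249975 bp. Their numbers ranged from 747 to 2726, so the farthest peaks were not among the lowest-numbered of the group.

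The 10 distant peaks with the lowest numbers were 304, 313, 316, 325, 326, 328, 329, 330, 332 and 333. Peak 304 (chrX:16653154-16653304) lay where Nemp, CG32573 and CG42512 overlap, 9.5 bp inside Nemp, a protein of the nuclear envelope. Peak 313 lay inside CG42271, peak 316 inside inc (an adaptor of a ubiquitin ligase with a role in sleep), and peak 325 inside Traf-like. Peak 326 lay outside any gene, 242.5 bp from a serine tRNA gene, and peak 328 inside both CG1785 and l(1)G0020. Peaks 329 and 333 were deep inside long genes, 43818 bp from an end of mamo (a zinc finger protein required in the germ line) and 19728 bp from an end of Pde9 (a phosphodiesterase). Peak 330 lay inside CG8944 and peak 332 inside Nrd1, a peptidase.

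The 5 highest numbers were 3598, 3326, 3040, 2994 and 2979. Peak 3598 (chrX:15553838-15553988), the last of the list at place 709, was 365.5 bp inside Ac13E, an adenylyl cyclase. Peak 3326 lay 91.5 bp outside CG3704 and peak 3040 lay 71.5 bp inside CG7889. Peak 2994 lay within Ten-a, a teneurin of synaptic connections, and peak 2979 within spri, an exchange factor of endocytosis. The low and the high ends of the range thus both held peaks at gene ends and peaks within long genes.

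The position relative to genes was not used by the rule. Gene extents came from RefSeq for Release 6, without strand, so the start and the 3′ end of a gene were counted alike. Of the distant peaks, 150 of 204 had their midpoint inside a gene, 73.5% (95% Wilson interval 67.1% to 79.1%, which covers counting error only), beside 76.6% of all 709 peaks. The share was 70.9% in proximal peaks (205 of 289, 65.5% to 75.9%) and 87.0% in low-numbered peaks (188 of 216, 81.9% to 90.9%). Peaks of 1 list are not replicates and neighbours share their region, so these shares were not tested against each other.

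A gene end lay within 500 bp of the midpoint for 114 distant peaks, 55.9% (49.0% to 62.5%), beside 56.1% of all listed peaks. The share was 63.0% (57.3% to 68.3%) in proximal peaks and 47.2% (40.7% to 53.9%) in low-numbered peaks. At 500 bp the distant peaks were therefore at the level of the whole list. Within 100 bp the share was 31.4% (64 peaks) for distant peaks, 39.4% for proximal peaks, 19.9% for low-numbered peaks and 31.2% for all listed peaks. The distance to the nearest gene end had a median of 390 bp for distant peaks, 212.5 bp for proximal peaks and 537.5 bp for low-numbered peaks.

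**Figure D3:**
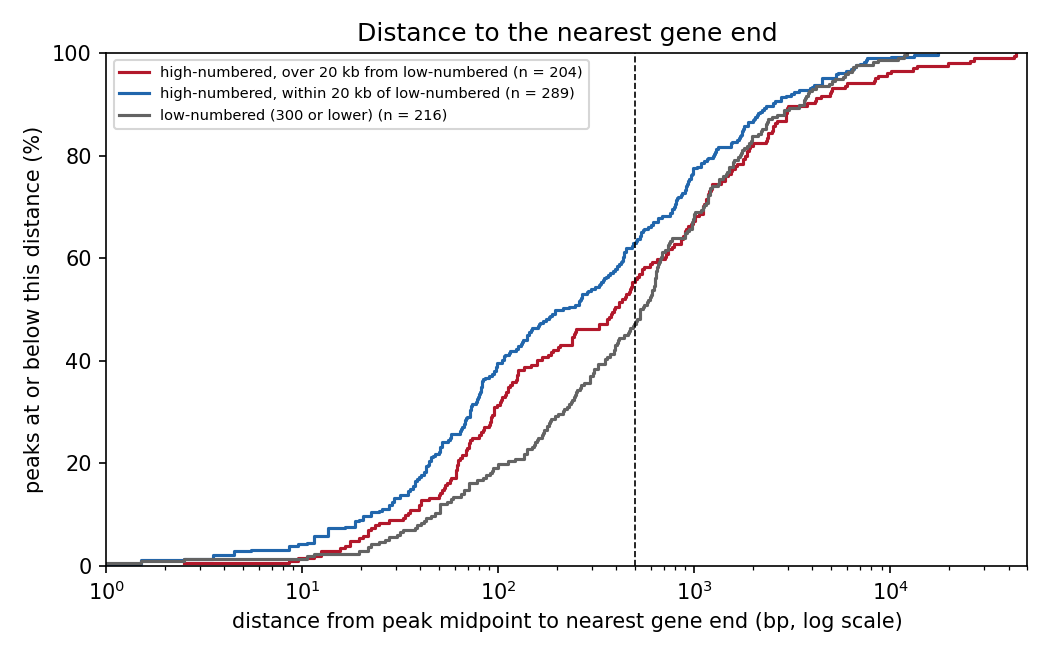
Cumulative share of peaks (%) by the distance from the midpoint to the nearest gene end (bp, log scale) for distant (red), proximal (blue) and low-numbered peaks (grey). At the dashed line of 500 bp the curves stand at 55.9%, 63.0% and 47.2%, and within 2000 bp at 82.4%, 86.9% and 83.8%.

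In the 100 bp just outside the nearest gene end lay 18.6% of distant peaks (38), 22.1% of proximal peaks and 9.72% of low-numbered peaks. In the 100 bp just inside lay 12.7% of distant peaks (26), 17.3% of proximal peaks and 10.2% of low-numbered peaks. More than 5000 bp from any gene end were 15 distant peaks (7.35%), against 14 proximal peaks (4.84%), 13 low-numbered peaks (6.02%) and 5.92% of all listed peaks.

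**Figure D4:**
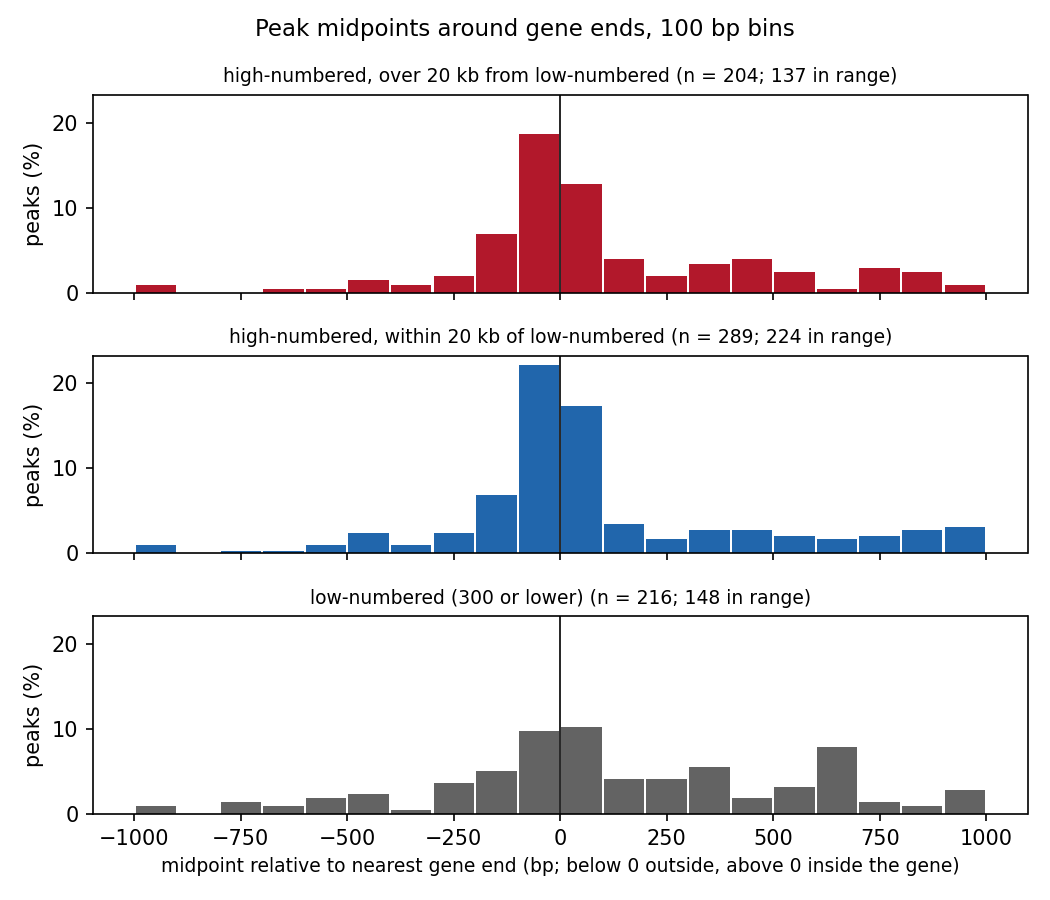
Share of peaks (%) in bins of 100 bp by the position of the midpoint relative to the nearest gene end (bp, below 0 outside and above 0 inside the gene), for distant, proximal and low-numbered peaks from top to bottom. The bin just outside the end holds 18.6%, 22.1% and 9.72% of the peaks; in range are 137 distant, 224 proximal and 148 low-numbered peaks.

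All 15 of these distant peaks had the midpoint inside a gene. Peaks 383 and 409 lay in br, the Broad zinc finger factor of the ecdysone response, which overlaps Mur2B. Peaks 2109 and 2420, 605 bp apart, lay in sgg, the kinase GSK3 of Wnt signalling, and peak 1539 lay in ct, the homeodomain protein Cut. Peaks 792 and 1025 lay in CHES-1-like, a forkhead factor. The others lay in Adar (with prage), rdgA, spri, Imp, Drak, Pde9, mamo and gce.

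Of the 54 distant peaks with the midpoint outside all genes, 42 were within 150 bp of one. The farthest from a gene was peak 746 (chrX:1399748-1399898), 2486 bp from Rilpl, with peak 989 beside it at 1898 bp. No other distant peak was more than 906.5 bp from a gene.

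The ends of 2 or more genes lay within 500 bp of 60 distant peaks, 29.4% (23.6% to 36.0%), beside 31.3% of all listed peaks. Of these 60, 32 had the midpoint between genes. The share of 29.4% stands beside 36.0% in proximal peaks and 26.9% in low-numbered peaks. The intervals overlap, and the shares were not tested against each other. One such peak is 544 (chrX:5873323-5873473), 40.5 bp outside GAA1, with mof on the other side. Whether genes on both sides start at such sites could not be read, as strand was not used here.

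The distant peaks were also split by number into 3 sets of 68, as a description with no test. Within 100 bp of a gene end lay 20.6% of the 68 peaks with the lowest numbers (304 to 626; interval 12.7% to 31.6%). For the 68 in the middle it was 29.4%, and for the 68 with the highest numbers (1151 to 3598) it was 44.1% (32.9% to 55.9%). The share within 500 bp, the main distance, had no such order, with 55.9%, 48.5% and 63.2%. A distance of 100 bp was not among the planned settings. The share inside a gene was 72.1%, 79.4% and 69.1%, with widely overlapping intervals. Across the 204 peaks the number had little rank relation to the distance to a gene end (Spearman's rho -0.104).

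**Figure D5:**
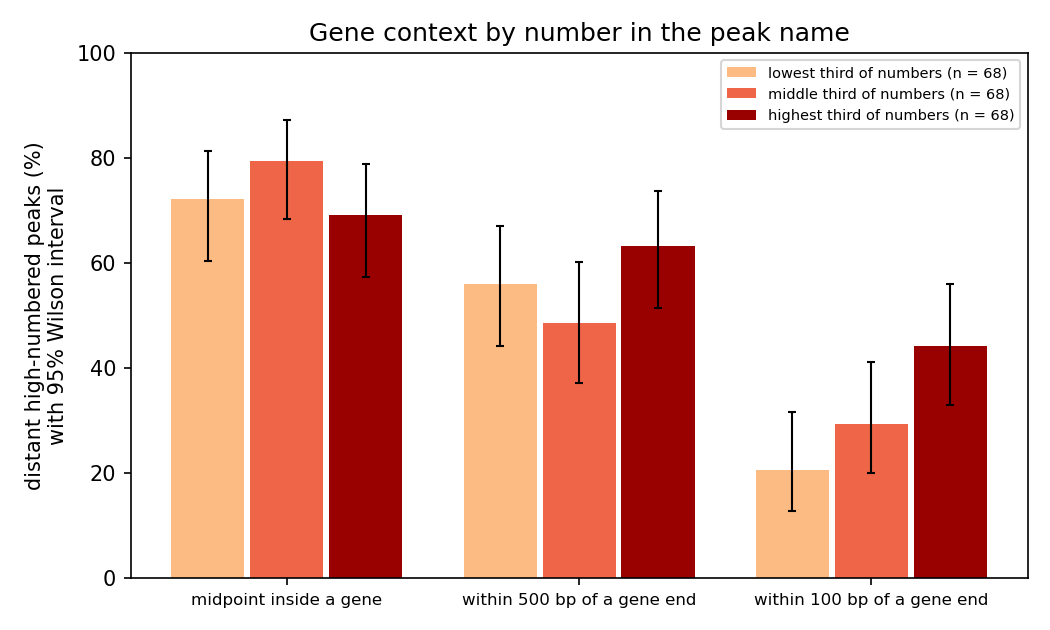
Share of distant peaks (%) inside a gene, within 500 bp and within 100 bp of a gene end, for the 68 peaks with the lowest, the 68 with middle and the 68 with the highest numbers; error bars are 95% Wilson intervals. Within 100 bp the bars stand at 20.6%, 29.4% and 44.1%, and within 500 bp, the main distance, at 55.9%, 48.5% and 63.2%.

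Runs join distant peaks only, so a single peak can have a listed peak of another kind close by. Peak 365, a single peak, has a proximal peak at 515 bp. A gene end lay within 500 bp of 56.8% of the 155 peaks in runs and of 53.1% of the 49 single peaks. The midpoint lay more than 5000 bp from any gene end in 7 of the 155 peaks in runs (4.52%, 2.2% to 9.03%) and in 8 of the 49 single peaks (16.3%, 8.51% to 29.0%), beside 5.92% of all listed peaks, and the intervals overlap. The ends of 2 or more genes lay within 500 bp of 32.9% of the peaks in runs and of 18.4% of the single peaks, with overlapping intervals (26.0% to 40.6% and 9.98% to 31.4%). Overlap of intervals is not a test, and peaks in runs were not tested against single peaks.

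At the level of genes, 225 of the 2700 X genes in the table had a distant peak in the body or within 500 bp of it, 8.33% of all X genes. Of the protein-coding genes it was 208 of 2192, or 9.49%. Among 241 lncRNA genes there were 9, and among 24 tRNA genes there were 3. Of the 225 genes, 11 also had a proximal or low-numbered peak, a count that the distance rule keeps low and that is not read as a result. A listed peak of any kind lay at 714 of the 2700 X genes, counted in the same way. Protein-coding genes with a distant peak inside had a median length of 6253 bp (129 genes), against 6276 bp for those with a proximal peak, 6441 bp for those with a low-numbered peak and 2519 bp for all 2192. Peak counts were not tested against gene length.

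Several distant peaks fell in 1 gene in 27 cases, 2 genes with 4 peaks, 3 with 3 and 22 with 2. G9a held 4 and no other peak. The other gene with 4 was su(w[a]), a splicing regulator (gene 31054, X 1012779 to 1046040), with peaks 1197, 1990, 1719 and 574. The distance between peaks 1990 and 1719 was 286 bp, below the minimum of 300 bp that the header names, and it was the smallest in the list.

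The 3 genes with 3 distant peaks were CG14442 (gene 31609), CHES-1-like (gene 31678) and PhKgamma (gene 32120). The peaks in CG14442 lay 21614 to 24583 bp from a low-numbered peak, near the limit of the rule, whereas those in CHES-1-like lay 204954 to 212007 bp away.

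Of the genes with 2 peaks, Hira, a histone chaperone (gene 31680, X 7722119 to 7725917), had peak 1166 with its midpoint 11.5 bp inside 1 end and peak 502 at 731.5 bp inside. Top1 (gene 32458, X 15319479 to 15328029) had peaks 402 and 809, at 1762 and 324.5 bp from an end. Adar, the deaminase of RNA editing, and prage overlap and share peaks 1039 and 1075. The helicase gene mahe had peaks 707 and 442.

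Other genes with 2 peaks included sgg, boi (a coreceptor of Hedgehog), rho-4 (a rhomboid protease), Marf (a mitofusin), Usp30 (a deubiquitinase), Hecw (a ubiquitin ligase) and cac (a calcium channel subunit). Further ones were CG43867, inc, the overlapping br and Mur2B, cyr, Gapvd1, Tango10, Scamp (a secretory carrier protein) and CG14200. Of the 27 genes, rho-4 was the only one that also held a listed peak of another kind, 1 proximal peak.

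Distant peaks closer than 700 bp to each other formed 17 pairs, a distance picked after the values were seen. In 7 of these a gene end lay between the midpoints. One such pair was peak 782, 69.5 bp outside NELF-B (a subunit of the negative elongation factor), and peak 1043, 65.5 bp inside CG12155, at 389 bp from each other. Another was peak 1693 within CG43867 and peak 1503, 17.5 bp outside MED22 (a Mediator subunit), at 470 bp. A listed peak of any kind lay within 700 bp of 36 distant peaks (17.6%), against 21.8% of proximal peaks, 12.0% of low-numbered peaks and 17.6% of all peaks.

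Lists of X genes were set beside the 8.33% of X genes with a distant peak, as a description. Their members were picked with earlier results of this peak list known, so a higher share in a list is not a result. A listed peak of any kind lay in the body or within 500 bp of 714 of all 2700 X genes. Of 33 chromatin and transcription regulators found on X, 9 had a distant peak (27.3%), 9 a proximal peak, 10 a low-numbered peak and 11 no listed peak. All 3 kinds of peak were thus found beside this list in similar numbers. The shares of all X genes with a proximal or with a low-numbered peak are not given here. The 9 genes were G9a, Rbf (the retinoblastoma protein), MED22, hfw, mof, HDAC4 (a deacetylase), tth, Top1 and HDAC6. Of these, hfw is counted as the list has it, and its place among regulators was not checked. Peaks lay inside 5 of them (G9a, Rbf, HDAC4, Top1 and HDAC6) and beside the other 4.

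Of the genes put on a list for dosage compensation, 5 were found on X and 2 had a distant peak. One was mof, whose product MOF is the acetyltransferase of the complex, with peak 544 outside it. The other was Top1, which also stands in the previous list and is not among the parts of the complex named above. The 2 genes of the list with a low-numbered peak were the noncoding roX1 and roX2, which had no distant peak within 500 bp. The rule largely fixes this absence, since no distant peak can lie within 20000 bp of a low-numbered peak.

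Of 28 signalling genes, 2 had a distant peak (7.14%, beside 8.33% of all X genes), sgg and Ptp10D (a receptor tyrosine phosphatase). A proximal peak lay at 9 of the 28, a low-numbered peak at 8 and no listed peak at 14. The shares of all X genes with a proximal or a low-numbered peak are not given, so these counts are not compared. Peak 1671 lay 91.5 bp inside Ptp10D. The 14 ribosomal protein genes included 2 with a distant peak (14.3%), RpS14b and RpS19a, and 9 with no listed peak. Both peaks lay outside the ribosomal gene itself, with the midpoint of peak 783 in Ubr3 (a ubiquitin ligase) and peak 548 at 35.5 bp outside Rok.

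Of 32 genes with tissue-restricted roles, such as the yolk, chorion and glue proteins, 29 had no listed peak. The 2 with a distant peak (6.25%, beside 8.33% of all X genes) were elav and para (a sodium channel). Other members with roles in neurons, such as Appl, rut and dnc, had no distant peak. Peak 2487 lay inside elav, which overlaps arg (an arginase) and lncRNA:enrr there, and peak 1144 lay inside para, 3751 bp from an end. Small lists such as these were not tested, and their members were picked with earlier results of this peak list known.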

How the data were processed

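The processed data are 1 peak list for the series. Per the submitters' processing notes, Bowtie2 2.2.9, SAMtools 1.9, HOMER 4.9 and build dm6 were used. HOMER findPeaks was run by the authors, per the file headers, on 7890306 anti-MSL2 tags, of which 160514 lay in peaks (2.03%), at 10-fold over the control and 4-fold over the surrounding 10000 bp. Of 9758 putative peaks these requirements removed 8575 and 474. Whether the libraries were pooled is not given in the sources used here. The deposited score is 1 for every peak and was not used. Each peak spans 151 bp.

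Peaks were placed by midpoint, with coordinates printed 1-based, against 2700 X genes of the RefSeq table (Release 6, the assembly of dm6). Shares have 95% Wilson intervals (scipy 1.17.1, Python 3.11.15). The assignment was checked on simulated data. No test was run, because a single list has no replicates. The members and gene lists were chosen with earlier results of these data known. Named were the peaks with the 10 lowest and 5 highest numbers, the 10 farthest, those at the limits, genes with 2 or more distant peaks, runs of 3 or more, and genes of the lists. Alternatives changed the limits of the rule, the distance to gene ends and the set of genes. Gene starts, motifs and sequences were not analysed here. One gene with distant peaks is not reported here.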

Additional observations from a re-analysis of the deposited data

How the results depend on the processing

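Of 26 alternative values, 17 stayed within 1.5 times the reported count or within the interval of the reported share. A distance limit of 40000 bp left 116 distant peaks and 128 genes, as fewer peaks pass it. The share inside a gene, 73.5% as reported, was 87.3% when 1 bp of overlap was enough. The share near a gene end, 55.9% as reported, was 46.1% within 250 bp and 67.2% within 1000 bp. Counting gene bodies alone left 136 of the 225 genes.

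An alternative chosen after seeing the data kept the lowest-numbered peak of each run, 97 peaks in all. The share inside a gene was then 80.4%, the share near a gene end (within 500 bp) 44.3%, and the number of genes 123. Other number limits (250 and 350) and a distance limit of 10000 bp gave 168 to 290 peaks, with 71.7% to 76.8% inside a gene and 54.2% to 58.6% within 500 bp of a gene end.

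No paired analysis was possible because values per library are absent from the list, and for the same reason none was left out. The planned values for gene starts and for promoter motifs were not run, since strand and sequence were not used here. Tags per peak were not analysed, so no peak's depth is known.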

Other observations

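Distant peaks beside tRNA genes were looked at after their values were seen. On X 14103906 to 14117647 a run of 3 distant peaks lay beside such genes: peak 440 was 189.5 bp outside tRNA:Arg-TCG-1-1, peak 326 was 242.5 bp outside tRNA:Ser-AGA-3-2, and peak 571 was 156.5 bp outside tRNA:Ser-AGA-2-2. They were 107017 to 120608 bp from a low-numbered peak. In all, 3 distant peaks, 0 proximal peaks and 2 low-numbered peaks lay within 500 bp of 1 of the 24 tRNA genes on X. These counts are small and were not tested.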
